A study of Mus musculus with 4 samples.

Results

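Genes of chromatin remodelling complexes and of protein deacetylases were compared between mouse lenses with a conditional knockout of Celf1 (Celf1 cKO, or cKO) and Control lenses. The members were taken by symbol. They were every probe whose symbol starts with Smarc, or is Chd, Hdac or Sirt followed by a number, or is Arid1a, Arid1b, Arid2, Ino80, Brd7 or Brd9. This gave 87 probes of 47 genes on the arrays. A probe was kept when its signal was above background (detection p under 0.05) on at least 2 of the 4 arrays, which left 61 probes of 43 genes, of 16262 probes kept and 11518 genes tested in all. Chd5, Smarca3, Smarca5 and Smarcd1 had no probe that was kept. Smarca3 is an older symbol of Hltf, and a probe of that gene outside the symbol rule was kept. Hltf is counted below among the other SNF2-type ATPases, and it was not called (log2 fold change of cKO over Control -0.18).

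CELF1 is an RNA-binding protein that controls the stability, splicing and translation of mRNAs. The arrays were hybridised with RNA from 4 mouse lenses at postnatal day 6, with 1 lens for each array and n = 2 in each group. The Celf1 cKO mice carried a Celf1 germline lacZ knock-in allele, a conditional Celf1 allele whose exon 5 is flanked by loxP sites, and the Pax6GFPCre transgene, which drives Cre in the lens and also in the pancreatic lineage. The Control mice had genotype Celf1 lacZKI/+, so that the lacZ knock-in allele was present in both groups and the Control group kept a wild-type allele. A mixed background, from C57BL/6 and FVB, is stated for the mice of the cKO cross, and none is stated separately for the Control mice. Whether the Control mice carried Cre is not stated. Nothing in the labels says whether the lenses of a group came from different litters, so the p-values cover these 4 lenses only. In limma the variance of each gene is drawn toward that of all genes tested. The standard errors, intervals and p-values are therefore not set by the spread of that gene alone.

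DNA in the nucleus is wound around histones, and remodelling complexes use the energy of ATP to slide, eject or exchange them. The SWI/SNF complexes are built around the ATPases SMARCA4 (BRG1) or SMARCA2 (BRM), the ISWI complexes around SMARCA1 or SMARCA5, the NuRD complex around CHD3, CHD4 or CHD5, and the INO80 complex around INO80. Histone deacetylases (HDAC) and the NAD-dependent sirtuins (SIRT) remove acetyl groups from histones and from other proteins. Lens fiber cells lose their nuclei as they mature, and Smarca4 and Smarca5 are both known to be needed for normal fiber differentiation in the mouse lens.

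The array reads each gene through probes of 50 bases, and the probes on which the results below turn are shown first. Sirt2 and Arid1a passed the test and were each read by a single kept probe. The Sirt2 probe lies at chr7:29573344-29573393 on the plus strand. All positions are as deposited, with the build not stated there. The files give no position for the Arid1a probe. Brd7 was read by a pair of probes at chr8:90863346-90863395 and chr8:90856797-90856846, both on the minus strand. Smarca2 had probes at chr19:26721581-26721630 and chr19:26852604-26852653 on the plus strand, which gave unlike values. The files do not say in which exon or untranslated part a probe lies.
Sirt2: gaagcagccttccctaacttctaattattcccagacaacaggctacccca
Arid1a: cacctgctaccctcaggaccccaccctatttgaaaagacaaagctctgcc
Brd7, first position: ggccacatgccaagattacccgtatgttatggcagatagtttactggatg
Brd7, second position: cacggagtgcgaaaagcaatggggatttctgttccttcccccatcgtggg
Smarca2, first position: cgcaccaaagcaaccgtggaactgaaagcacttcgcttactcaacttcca
Smarca2, second position: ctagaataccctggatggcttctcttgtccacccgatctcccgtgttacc

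The probes of Chd9 and of Sirt5 below are shown because they read nearly the same stretch of their transcript, and their values differed more than those of the other pairs of this kind, Sirt6 and Chd1. Capitals mark the bases that the probes of a pair share, which are 49 of 50 for Chd9 and 43 of 50 for Sirt5.
Chd9, first probe: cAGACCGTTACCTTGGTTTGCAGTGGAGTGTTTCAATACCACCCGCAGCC
Chd9, second probe: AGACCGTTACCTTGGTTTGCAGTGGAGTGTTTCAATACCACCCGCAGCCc
Sirt5, first probe: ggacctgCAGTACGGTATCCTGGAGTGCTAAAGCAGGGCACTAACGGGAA
Sirt5, second probe: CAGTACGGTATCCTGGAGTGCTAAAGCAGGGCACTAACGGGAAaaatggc

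Some facts of the 4 lenses bear on every comparison. In cKO lenses 16261 and 16925 probes were above background, compared with 14542 and 14180 in Control lenses, so that brightness and genotype cannot be told apart. Celf1 itself was reduced, at -1.43 ± 0.19 (log2 fold change of cKO over Control ± SE, limma adjusted p = 0.0099). Xist, the RNA of the inactive X chromosome, was above background in neither Control lens, and its level in cKO lenses was higher by at least 6.09-fold, while the Y-linked Ddx3y had log2 signals of 6.81 and 4.82 in cKO and 8.99 and 8.82 in Control lenses, so that the cKO lenses differed from each other. The sex of the mice is not given, and genotype and these transcripts varied together. All 8 listed markers of lens fibers were tested, none was higher in cKO lenses, and 2 were reduced (Birc7 and Bfsp2). Their summed log2 signal was 17.40 to 17.46 in cKO and 17.58 to 17.62 in Control lenses. The sum is carried by the brightest probes, which the normalization sets to nearly the same values on every array. Mip, for example, was at 14.75 in cKO A and in both Control lenses. The sum therefore says little of the amount of fiber cells. Of 7 lens epithelium markers 6 were tested, 5 were lower and 1 (Foxe3) was called, and the summed log2 signal was 8.49 to 9.06 in cKO and 9.46 to 9.63 in Control lenses. The summed signal of 6 markers of proliferating cells was 8.75 to 8.82 and 8.74 to 8.82. None of 7 retina markers and none of 5 muscle markers passed the detection filter, and 1 of 6 pigment cell markers and 1 of 6 blood markers passed it and were not called. Of the 5 vessel markers 2 were higher and 3 lower, and 1 was called (Emcn, elevated, summed log2 signal of the list 8.02 to 8.05 in cKO and 7.90 to 7.93 in Control lenses), and of 3 tested macrophage markers 1 was higher and called elevated and 2 were lower (Cd68 the elevated one, above background in neither Control lens, summed 6.50 to 6.53 and 6.32 to 6.40). The part of these cell types in the results was not tested, and in whole lenses fewer cells of a type and less RNA per cell cannot be told apart.

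Few of the chromatin genes passed the test between the genotypes. Sirt2, a mainly cytoplasmic deacetylase of tubulin and other proteins, was reduced in cKO lenses, and Arid1a, a DNA-binding subunit of the BAF form of SWI/SNF, was elevated. The other 41 of 43 member genes were not called. A call needed an adjusted p under 0.05 in limma, a log2 fold change beyond 0.58 in either direction, and a log2 signal whose mean over the lenses exceeded 4.6. The share called was therefore 4.65%, where 11.7% of the 11518 genes tested were called, 6.03% elevated and 5.63% reduced. The median absolute log2 fold change was 0.17 over the members and 0.25 over all genes, and it exceeded 0.58 in 2 members and in 15.7% of all genes. The members lay in both directions, with 17 higher and 26 lower in cKO lenses and a median log2 fold change of -0.020, against 0.0097 for all genes. Groups were fully separated for 22 members (51.2%), 12 with cKO higher and 10 with cKO lower. Of all genes 62.3% were so separated, 32.6% with cKO higher and 29.7% with cKO lower. At an unadjusted p under 0.05 there were 13 members, and 3676 of all genes.

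**Figure D1:**
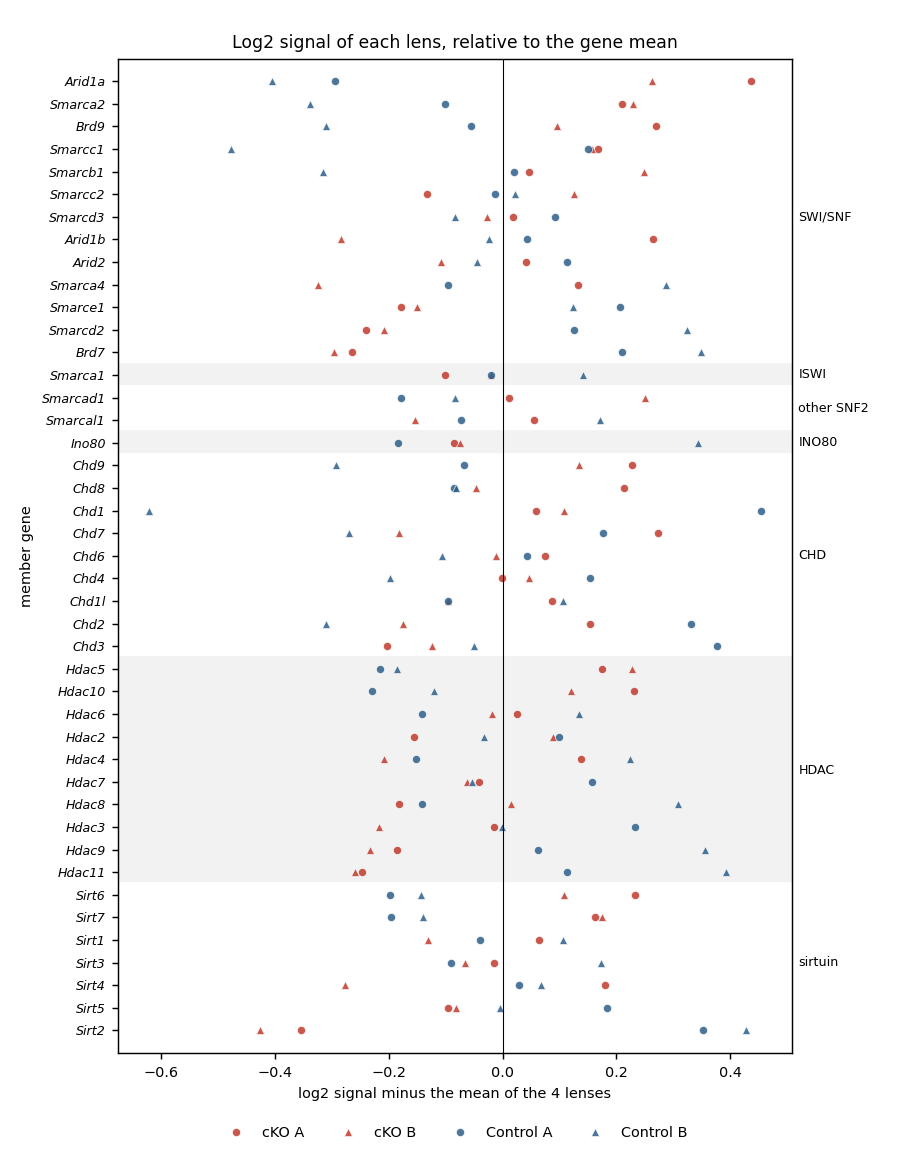
Log2 signal of the 43 member genes in each of the 4 lenses, as the difference from the mean of the gene (x axis), with genes grouped by family (y axis); red points are cKO and blue points Control lenses, circles replicate A and triangles replicate B. Sirt2 and Arid1a have the widest gap between the groups, and for 21 of the 43 genes the groups overlap.

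The lack of a call does not show that a gene was the same in both groups. The 95% interval of the log2 fold change, from the same fit and not adjusted for the number of genes, had a median half-width of 0.36 over the members. Among the 41 members not called, it lay within 0.58 of 0 for 19 and within 1 of 0 for all 41. A change of more than 1.5-fold in either direction thus lies outside the interval of 19 of them under this scaling. A change of more than 2-fold lies outside the interval of every one. For Hdac9 and Hdac10, above background in neither lens of one group, the interval rests on background signal and cannot exclude a larger change.

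**Figure D2:**
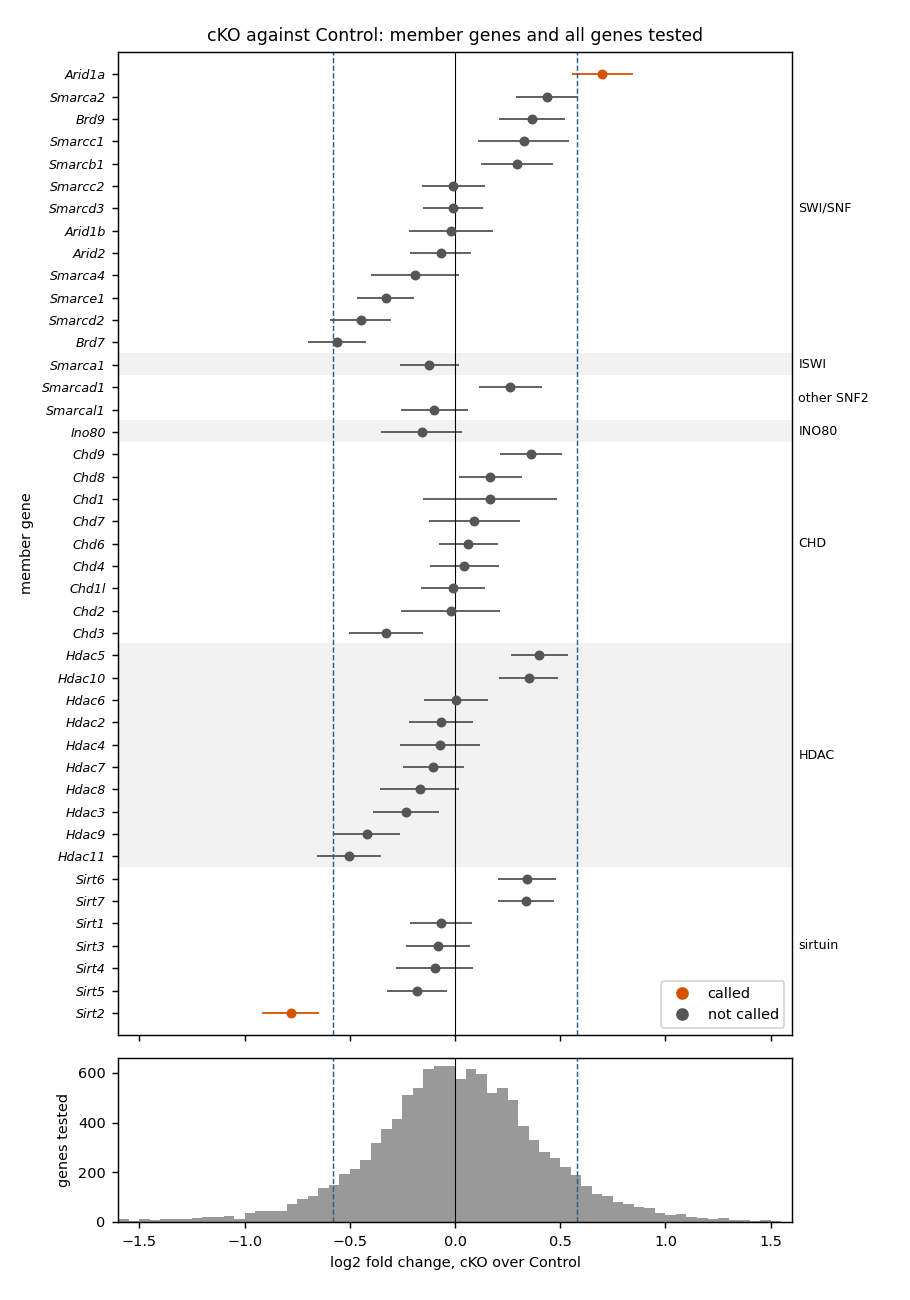
Log2 fold change of each member gene, cKO over Control, with its standard error (upper panel, x axis shared), and the histogram of the log2 fold change over the 11518 genes tested (lower panel, y axis number of genes; the x axis is limited to -1.6 to 1.6). Dashed lines mark the fold threshold of 0.58 and orange points the called genes, which are Arid1a at 0.70 and Sirt2 at -0.78.

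The sirtuins were examined first because the largest change of any member was among them. The log2 signal of Sirt2 was 8.18 in cKO A and 8.10 in cKO B, against 8.88 in Control A and 8.96 in Control B. Both cKO lenses lay below both Control lenses, and the log2 fold change was -0.78 ± 0.14 (SE, limma adjusted p = 0.019). Before normalization the groups overlapped, with an intensity of 402.0 in cKO A and 413.8 in cKO B against 424.8 in Control A and 350.0 in Control B, so that the reduction is one relative to the rest of each array. Without any scaling between arrays the log2 fold change was 0.080, and with arrays set to the same median it was 0.042, and these settings put the all-gene median at 0.57 and 0.53. Relative to that median Sirt2 lay at -0.49 under both scalings, and at -0.79 as reported. The call was lost without cKO A (adjusted p = 0.070), without cKO B (0.13) and without Control B (0.078), and the log2 fold change stayed between -0.82 and -0.74.

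The other sirtuins did not pass the test. Sirt6, a nuclear deacetylase of histone H3 with roles in DNA repair, had log2 signals of 5.15 and 5.02 in cKO and 4.72 and 4.77 in Control lenses. Its log2 fold change was 0.34 ± 0.14 (SE, limma adjusted p = 0.14). Sirt7, the nucleolar sirtuin, gave 8.51 and 8.52 against 8.15 and 8.20, with a log2 fold change of 0.34 ± 0.13 (adjusted p = 0.14). For both genes the cKO values lay above the Control values. Sirt1, the nuclear sirtuin most like yeast Sir2, had a log2 fold change of -0.067, and the mitochondrial Sirt3, Sirt4 and Sirt5 had -0.081, -0.097 and -0.18. The interval of Sirt1 ran from -0.42 to 0.28.

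Among the SWI/SNF genes, 13 were tested, 1 was elevated and none was reduced. The log2 signal of Arid1a was 5.66 in cKO A and 5.49 in cKO B, against 4.93 in Control A and 4.82 in Control B. Both cKO lenses lay above both Control lenses, and the log2 fold change was 0.70 ± 0.14 (SE, limma adjusted p = 0.028). The probe was dim, with an unnormalized intensity of 89.0 and 86.0 in cKO and 58.5 and 49.6 in Control lenses, and its detection p in the Control lenses was 0.0267 and 0.0395. The other Arid1a probe on the arrays was not kept. The size of the change depended on the processing. It was 0.32 with no detection filter (adjusted p = 0.22), 0.33 with normexp and an offset of 50 (0.051), 0.37 with arrays scaled on the probes detected in all lenses (0.10), 0.40 with no background correction (0.043) and 0.96 with the deposited normalized intensities (0.078), and Arid1a was called under none of these. With no normalization it was 1.13, and Arid1a was called. The call was lost without cKO A (adjusted p = 0.16), without cKO B (0.14) and without Control B (0.092).

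Brd7, a bromodomain subunit of the PBAF form, came next to the threshold. Its log2 signal was 7.58 in cKO A and 7.55 in cKO B, against 8.06 in Control A and 8.20 in Control B, with no overlap. Its log2 fold change, -0.56 ± 0.14 (SE, limma adjusted p = 0.045), passed on the adjusted p, as did 12.4% of all genes, but lay inside the fold threshold, and so Brd7 was not called. Both Brd7 probes were lower in cKO lenses, at -0.65 and -0.47. Without scaling between arrays and with arrays set to the same median, Brd7 was above 0 and below the median of all genes.

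**Figure D3:**
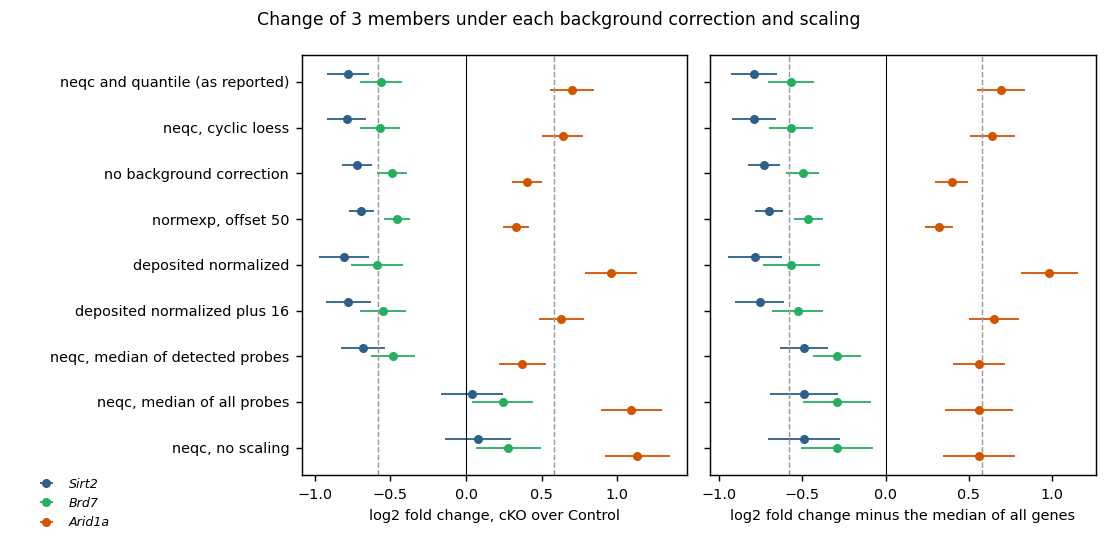
Log2 fold change, cKO over Control, with its standard error for Sirt2, Brd7 and Arid1a (x axis, left) and the same values minus the median of all genes (x axis, right) under each background correction and scaling (y axis); dashed lines mark 0.58. Sirt2 lies at -0.78 as reported and at 0.080 with no scaling, but stays below the median of all genes in every row, and Arid1a stays above it.

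The core and accessory subunits of SWI/SNF had values of both signs. The ATPases differed in sign. Smarca2 had log2 signals of 6.66 and 6.68 in cKO and 6.35 and 6.11 in Control lenses (log2 fold change 0.44, limma adjusted p = 0.094), and the groups did not overlap. Smarca4 had 6.58 and 6.13 against 6.36 and 6.74 (log2 fold change -0.19, adjusted p = 0.57), and the groups overlapped. The difference between the ATPases was not tested. Among the core subunits, Smarcb1 had a log2 fold change of 0.29, Smarcc1 of 0.33, Smarcc2 of -0.0077 and Smarce1 of -0.33, each with an adjusted p above 0.05. Of the SMARCD subunits, which link the complex to transcription factors, Smarcd2 had a log2 fold change of -0.45 (adjusted p = 0.083) with no overlap of the groups, and Smarcd3 of -0.0089. The other ARID subunits, Arid1b and Arid2, had -0.019 and -0.067, and Brd9, which belongs to the non-canonical BAF form, had 0.37 (adjusted p = 0.16).

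None of the ISWI, INO80 and other SNF2-type ATPases was called under the scaling used here. Smarca1, the ISWI ATPase whose gene lies on the X chromosome, had log2 signals of 7.38 and 7.46 in cKO and 7.46 and 7.62 in Control lenses, and its log2 fold change was -0.12 ± 0.14 (SE, limma adjusted p = 0.59). Smarcad1, which acts in heterochromatin maintenance and DNA end resection, gave 6.91 and 7.15 against 6.72 and 6.82 (log2 fold change 0.26, adjusted p = 0.275). Smarcal1, an annealing helicase of stalled replication forks, gave 6.14 and 5.93 against 6.01 and 6.25 (-0.098). Ino80 was at the edge of detection, with log2 signals of 4.592 and 4.602 in cKO and 4.49 and 5.02 in Control lenses, and was above background on 1 array of each group. Its log2 fold change was -0.16, and Control B was the array above the others. Ino80 was at -0.71 (adjusted p = 0.038) and called when arrays were scaled on the probes detected in all lenses.

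The CHD remodellers also showed no call among 9 genes, and their median log2 fold change was 0.063. Chd9 had the highest value of the family, with log2 signals of 6.35 and 6.26 in cKO against 6.06 and 5.83 in Control lenses and no overlap (log2 fold change 0.36 ± 0.15, SE, limma adjusted p = 0.15). Chd3 was the lowest, with 4.68 and 4.76 against 5.26 and 4.83 (-0.33 ± 0.18, SE, adjusted p = 0.25). Chd3 was at -0.81 (adjusted p = 0.010) and called with arrays scaled on the probes detected in all lenses. With the deposited normalized intensities it was at -0.75 (adjusted p = 0.16). The single kept Chd3 probe was near background and its groups overlapped before normalization. Its unnormalized intensity was 55.8 and 59.6 in cKO and 64.9 and 49.8 in Control lenses. Chd4, the main ATPase of NuRD, had log2 signals of 6.72 and 6.77 in cKO and 6.88 and 6.52 in Control lenses, so that the cKO values lay between the Control values (log2 fold change 0.045). Chd7, mutated in CHARGE syndrome with its eye defects, and Chd8 had log2 fold changes of 0.092 and 0.17. Chd1, which reads methylated histone H3, had the widest spread of all members within a group, at 5.55 in Control A and 4.48 in Control B, and a 95% interval from -0.59 to 0.92. Chd1l, Chd2 and Chd6 lay between -0.020 and 0.063.

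Of the 10 histone deacetylases tested, none was called, 3 were higher and 7 lower. The class I enzymes tested, Hdac2, Hdac3 and Hdac8, act on histones in the nucleus, and none was called. Hdac2 had log2 signals of 8.94 and 9.18 in cKO and 9.19 and 9.06 in Control lenses (log2 fold change -0.067), and its interval ran from -0.43 to 0.29. Hdac3, the enzyme of the NCOR complex, had a log2 fold change of -0.23 (limma adjusted p = 0.35) with no overlap of the groups, and Hdac8 of -0.17. The class IIa enzymes, which shuttle between nucleus and cytoplasm and bind MEF2 factors, pointed in different directions. Hdac5 had log2 signals of 6.03 and 6.08 in cKO and 5.64 and 5.67 in Control lenses, with no overlap (log2 fold change 0.40 ± 0.13, SE, adjusted p = 0.093). Hdac9 was above background on both Control arrays and on no cKO array, so that it was kept through the Control arrays alone. It did not pass the test (adjusted p = 0.12). Set against the lowest signal of detected probes, its cKO level was 1.31-fold lower. This value depended on the probes used and is no firm bound. Its unnormalized intensity was 52.9 and 53.1 in cKO and 56.7 and 53.3 in Control lenses, and with probes assigned by updated gene name the log2 fold change of Hdac9 was 0.19. Hdac4 and Hdac7 had log2 fold changes of -0.071 and -0.10.

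Outside class I and class IIa, Hdac11, the single class IV enzyme, had the lowest value among the Hdac genes measured above background in both groups. Its log2 signal was 6.12 in cKO A and 6.10 in cKO B, against 6.48 in Control A and 6.75 in Control B. The groups did not overlap, and the log2 fold change was -0.51 ± 0.15 (SE, limma adjusted p = 0.072), which did not pass the test. Before normalization the intensity of Hdac11 was 113.7 and 119.9 in cKO and 106.9 and 99.4 in Control lenses, and its log2 fold change turned to 0.17 under a shared array median and to 0.21 with no normalization, below the all-gene median in both. Hdac10, a polyamine deacetylase, was above background on both cKO arrays and on neither Control array, so that it was kept through the cKO arrays alone. Set against the lowest signal of detected probes, its cKO level was 1.07-fold higher. It did not pass the test (limma adjusted p = 0.14). Hdac6, the cytoplasmic deacetylase that shares tubulin as a substrate with SIRT2, had log2 signals of 5.06 and 5.02 in cKO and 4.90 and 5.17 in Control lenses and a log2 fold change of 0.0060. Hdac6, Hdac8 and Smarca1 are the 3 members placed on the X chromosome by the files, and none of them was called.

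Several members rest on more than 1 probe, which gives a second reading of the same gene on the same RNA. Of the 43 genes, 13 had 2 or more kept probes, 31 probes in all. In 6 of these genes the probes differed in sign, and the range of their log2 fold changes was 0.034 for Smarce1 to 0.89 for Smarca2. The first Smarca2 probe was near background, at 59.5 and 52.9 in cKO and 55.8 and 46.7 in Control lenses of unnormalized intensity, and gave a log2 fold change of -0.0072. The second was bright, at 496.2 and 672.4 against 234.3 and 157.9, and gave 0.89 (limma adjusted p over all probes 0.028). Under the scaling used here, Smarca2 was called when each gene was read by its brightest probe, and not when its probes were averaged. Averaged, it was called with arrays set to the same median and with no normalization. Smarca2 was also called when probes had to be detected on all 4 arrays, which left the bright probe alone. The first probe was above background only in cKO A and Control A, so leaving out either of these lenses also left the bright probe alone. Smarca2 was called in both of these fits. With each lens left out in turn, its log2 fold change ran from 0.32 to 1.06. Chd4 had probes at 0.38, 0.19 and -0.43.

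Fitted probe by probe, 5 of the 61 member probes were called, where 11.5% of all 16262 kept probes were. They were the probes of Sirt2 and Arid1a, the Brd7 probe at the first position, the bright Smarca2 probe and the first of the Chd9 pair. That Chd9 probe gave 0.61 (limma adjusted p = 0.044), while the probe shifted by 1 base gave 0.43 (adjusted p = 0.14). The Sirt5 probes, with 43 shared bases, gave -0.40 and 0.039. The overlapping Sirt6 probes, with 49 shared bases, gave 0.35 and 0.45, and those of Chd1, with 48, gave 0.14 and -0.0071. The other 30 of the 43 members, Sirt2 and Arid1a among them, have a single kept probe and no such second reading.

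**Figure D4:**
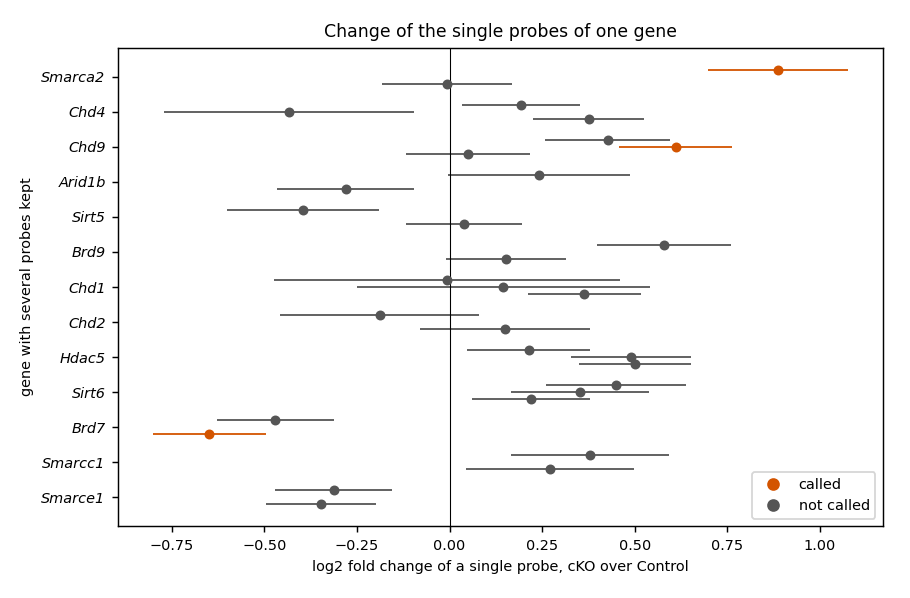
Log2 fold change, cKO over Control, of the single probes (x axis, points with standard error) of the 13 member genes with several kept probes (y axis), ordered by the range of their probes. Orange marks called probes; the probes of Smarce1 lie 0.034 apart and those of Smarca2 0.89 apart.

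The detection rule had few members at its edge. Of the 87 probes, 24 were above background on no array, 2 on 1 array and 7 on exactly 2 arrays. Of those 7 just inside, 1 probe each of Chd1, Hdac5, Hdac10 and Sirt6 was detected in both cKO lenses and that of Hdac9 in both Control lenses, while the Ino80 probe and 1 of Smarca2 were detected in 1 lens of each group. The detection p-values of the Sirt6 probe were 0.0481 and 0.0427 in cKO and 0.650 and 0.173 in Control lenses, and those of the Ino80 probe 0.0502 and 0.0363 against 0.143 and 0.0171. Just outside lay 1 probe of Chd1l, detected in Control B (0.0363), and 1 of Smarca2, detected in cKO B (0.0289). Of the 43 genes, 38 had a detected probe on all 4 arrays. CELF1 is known to bind GU-rich RNA, and the letters TGTTTGT and TGTGTGT were searched in the sense strand of the probes. They were found in none of the 61 member probes, and in 0.695% and 0.812% of all kept probes, which says nothing of the rest of each transcript.

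Other chromatin genes were examined with lists of further subunits of the same complexes, of histone acetyltransferases and of other SNF2-type ATPases. Of 108 listed genes 82 were tested, and 5 were called (6.10%, against 11.7% of all genes), 4 elevated and 1 reduced. Their median log2 fold change was 4.2e-04. None of 13 further SWI/SNF subunits, 5 ISWI partners, 10 histone acetyltransferases and 6 SNF2-type ATPases was called. Of 7 tested NuRD subunits, Rbbp4, a histone chaperone shared by NuRD and SIN3 complexes, was reduced (log2 fold change -0.71 ± 0.16, SE, limma adjusted p = 0.037). Of 24 tested subunits of the INO80, SRCAP and TIP60 complexes 2 were elevated, Morf4l2 (0.73, adjusted p = 0.024) and Tfpt (0.67, adjusted p = 0.028). Of 17 tested subunits of the HDAC corepressors 2 were elevated. These were Kdm1a, the LSD1 demethylase of histone H3 in the CoREST complex (0.70, adjusted p = 0.034), and Sap30 of the SIN3 complex (0.68, adjusted p = 0.044). For Kdm1a the log2 signal was 9.20 and 9.40 in cKO and 8.708 and 8.502 in Control lenses, and for Rbbp4 it was 6.00 and 5.74 against 6.47 and 6.70, with no overlap in either gene. None of these 5 calls was kept without cKO A, without cKO B or without Control B, and 4 of the listed genes were called without Control A.

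The count of called members depended on the scaling between arrays. With arrays set to the same median, or with no normalization, 23 of 43 members were called, all elevated. Of all genes 47.0% and 50.3% were called there, and the median over all genes stood at 0.53 and 0.57. Of these calls over all genes, 97.3% and 97.7% were elevated. When the shared median was taken over the probes detected on all 4 arrays, 4 members were called, all reduced (Sirt2, Chd3, Hdac9 and Ino80). Of all genes 23.4% were called there, 24.8% of these calls were elevated, and the median over all genes stood at -0.19. Relative to the median of all genes, the median of the members was -0.029 as reported, 0.060 under these scalings and -0.081 to 0.060 over all settings run.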

How the data were processed

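RNA of 4 lenses was hybridised to Illumina MouseWG-6 v2.0 BeadChips. The authors deposited unnormalized and normalized signal intensity for each probe and array, and a detection p-value that compares it with background. The authors deposited 2 other columns used here, the standard error over beads and the number of beads (17 to 72 for member probes). The authors named edgeR for their own array comparison. It was not used here, since the values are intensities.

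The unnormalized data held 18 lines with shifted cells, none of a member; these were left out and 45263 probes were used. Unnormalized intensity was background-corrected and quantile normalized (neqc, offset 16, in limma, version 3.58.1, under R, version 4.3.3). Kept probes had a detection p under 0.05 on at least 2 arrays, and a gene took the mean log2 value of its kept probes. Genes were named through RefSeq (GRCm38.p6), and probes that reach a member gene only through an older symbol were kept apart. Groups were compared, two-sided, with lmFit and eBayes and Benjamini-Hochberg adjustment over 11518 genes. A gene detected in neither lens of a group has a bound only, set against the lowest signal of detected probes.

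The members, lists and tests were chosen with earlier results of these data known. Every member gene is named. Values in each lens were to be given for called members and for the highest and lowest of each family, and those of further members were chosen after their values were seen. Of the other chromatin genes, at most the 2 called genes of largest change in each direction are named for each list. Alternatives were other background corrections, scalings, filters, probe rules and tests, a replicate block and leaving out each lens. One of them, adding 16 to the deposited normalized intensity, was chosen after seeing the data.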

Additional observations from a re-analysis of the deposited data

How the results depend on the processing

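With 2 lenses in each group, the number of arrays limits the precision. In place of 2 called members and 5 called other chromatin genes (11.7% of all genes called), the deposited normalized intensities gave 0 and 0 (0.0608% of all genes), normexp with an offset of 50 gave 1 and 3 (6.29%), the same median on each array gave 23 and 46 (47.0%), no normalization gave 23 and 46 (50.3%), the same median over probes detected on all 4 arrays gave 4 and 11 (23.4%), no detection filter gave 1 and 0 (0.718%), and a test against the fold threshold itself (treat) gave 0 and 0 (0.721%). No background correction gave 1 member (7.87% of all genes), and single probes gave 5 member probes. Leaving out each lens in turn gave 0 to 6 members and 0 to 4 other chromatin genes, the latter at 0 in each case but that of Control A. No member was called without cKO B (0, with 1.56% of all genes called) or without Control B (0, with 1.53%), 1 was without cKO A (Smarca2, 5.61%), and 6 were without Control A (12.1%), namely Arid1a, Chd1, Smarca2, Smarcc1, Hdac11 and Sirt2. With the same median on each array and with no normalization, 2 members (Chd3 and Hdac9) were lower in cKO lenses, against 26 as reported. Among those that turned positive were Sirt2 (0.042 and 0.080) and Smarca1 (0.68 and 0.72). The cause of these differences was not tested. The labels do not say what the replicate letters stand for. The A minus B differences of the groups had a correlation of -0.01 across genes. This cannot show that the lenses were unpaired, since normalization removes an effect shared by a whole array. With the replicate block 2 members, 5 other chromatin genes and 1676 of all genes were called. The median of the members relative to that of all genes ranged from -0.08 to 0.06 over the settings in which it was computed.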
